A study of Mus musculus with 4 samples.

Results

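*Vegfa* and 9 other genes of the cellular response to low oxygen were followed in C2C12 cells, a mouse myoblast line, with and without knockdown of *Hnrnpl*, which encodes the RNA-binding protein hnRNP L. The members were given as a list of names (*Vegfa*, *Hif1a*, *Bnip3*, *Ndrg1*, *Adm*, *Egln1*, *Egln3*, *P4ha1*, *Ddit4* and *Ankrd37*), and all 10 were found by symbol among the 56748 gene IDs of the count files. All cells were of the WT genotype and grew as myoblasts in serum-containing growth medium. The knockdown group carried plasmids from a cocktail of 3 shRNAs against *Hnrnpl* and the scrambled group a scrambled shRNA, in both cases with an eGFP reporter and puromycin selection. Each group was 2 libraries of nanopore direct RNA, labelled batch 1 and batch 2, prepared from different passages of 1 selected stable line per group. Selected line and shRNA therefore cannot be told apart, and p-values measure the spread between passages. The labels name no oxygen treatment.

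In cells with enough oxygen, the prolyl hydroxylases encoded by the *Egln* genes modify HIF-1α, which is then bound by the VHL ubiquitin ligase and degraded. When oxygen falls, HIF-1α persists, pairs with ARNT and binds short hypoxia response elements near its target genes, among them *Vegfa*, *Bnip3*, *Ndrg1*, *Adm*, *P4ha1*, *Ddit4*, *Ankrd37* and, as feedback, *Egln1* and *Egln3*. *Vegfa* mRNA is also controlled after transcription, and hnRNP L, which prefers CA repeats, is among the proteins known to bind a CA-rich element in the 3′ UTR of the human transcript.

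Both kinds of element were looked up in the mouse reference sequence (GRCm39) because HIF binds response elements and hnRNP L is known to bind the human *Vegfa* transcript. From 1000 bases before to 100 bases after the annotated start, on either strand, the response element cores ACGTG and GCGTG occurred 1 and 5 times at *Vegfa*. A core of either spelling is common, since 88.8% of 8224 tested protein-coding genes had at least 1 in the same window and 58.1% had ACGTG. All 10 members had ACGTG, from 1 copy at *Vegfa*, *Adm*, *Egln3* and *P4ha1* to 5 at *Ankrd37*, counting both strands of a palindromic CACGTG. The *Vegfa* copy and examples from 4 other members are printed 5′ to 3′ on the strand of the gene, with the core in capitals (CACGT is ACGTG on the other strand).
Vegfa, core at -917, chr17:46344212-46344236, minus strand: cacagtgcatACGTGggtttccaca
Egln3, core at -216, chr12:54250875-54250899, minus strand: tgcatctcagACGTGagatccaggt
Egln1, core at -168, chr8:125677019-125677043, minus strand: tacaaatcacACGTGgaaccgacag
P4ha1, core at 11, chr10:59159092-59159116, plus strand: tgacagagcgCACGTagcgagggct
Ankrd37, core at -414, chr8:46453305-46453329, minus strand: gcggcggaggACGTGgggcaggagg
A core is a match of letters, and the count files hold no measure of HIF binding.

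In the 1865-base 3′ UTR of the reference *Vegfa* transcript, 3 runs of at least 6 bases of alternating C and A were found. They are shown because CA repeats are what hnRNP L prefers, with the run in capitals; the first and second windows overlap.
Vegfa 3′ UTR, run at UTR base 315, chr17:46329452-46329481, minus strand: ggattcctgtagACACACccacccacatac
Vegfa 3′ UTR, run at UTR base 331, chr17:46329436-46329464, minus strand: cccacccacatACACACAtatatatatat
Vegfa 3′ UTR, run at UTR base 1442, chr17:46328325-46328354, minus strand: ccttgtccccacCACACAttcctttgaaat
The runs are matches of letters and were not aligned to the CA-rich element of the human transcript. The count files hold no measure of hnRNP L binding. Such runs are not rare. Of 1381 UTRs that differed in length by at most a factor of 5/4, 65.4% held at least 1, and 34.2% held a run as long as the longest one in *Vegfa*, which spans 7 bases. Among the other members, *Bnip3* had 2 runs, *Ddit4* and *Egln1* 1 each, and the remaining 6 none.

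The libraries held 1229424 to 1676911 reads assigned to genes, 56.5% to 57.8% of all reads. *Hnrnpl* was read in 358 and 656 copies in the scrambled and 242 and 258 in the knockdown libraries, and its log2 fold change was -0.78 ± 0.18 (SE, edgeR quasi-likelihood test, Benjamini-Hochberg adjusted p = 0.0112). The adjusted p of *Hnrnpl* ranged from 9.48e-06 to 0.283 over 16 alternative settings and was below 0.05 in 12 of them, but not without scrambled 2 (0.164) or knockdown 1 (0.283). Of the 5 myoblast markers, *Myf5* was read in 113 to 190 copies per library, but *Myod1* in 0 to 1. *Des*, *Cdh15* and *Chrna1* fell in the knockdown (log2 fold changes of -0.56, -2.55 and -1.53, adjusted p in edgeR of 0.0308, 2.03e-06 and 3.40e-05, with *Des* at 0.0526 in the fit with the replicate number as a block), and the 5 markers summed to normalized counts of 940 and 1113 in the scrambled and 610 and 522 in the knockdown libraries. Fewer cells of a type and less RNA per cell cannot be told apart in bulk RNA, and the part of the myoblast markers in the results for the hypoxia genes was not tested. Differentiated muscle, endothelial, macrophage and adipocyte markers gave at most 16, 1, 4 and 2 reads in any library, and the defining genes *Myog*, *Pecam1*, *Ptprc* and *Plin1* had 0 reads throughout.

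*Vegfa* was the only member called in this comparison, and it was higher in the knockdown. A gene was called when its adjusted p was below 0.05, its log2 fold change beyond 0.5 and its mean normalized count above 10. By this rule 2.33% of the 8670 genes tested were called higher and 3.22% lower (5.55% in all), and of the 7 members tested 1 was called higher and 0 lower, a count that shows nothing particular to the members. The unadjusted p was below 0.05 for 1 member in each direction, *Vegfa* and *Ndrg1*, and for 21.8% of all genes tested. Of the 7 tested members, 4 had a positive fold change and their median was 0.14, against 49.9% positive and a median of -0.00059 over all genes tested. With chromosome medians removed, 2 of the 7 were positive and their median was -0.10. *Bnip3*, *Adm* and *Ankrd37* had too few reads to be tested.

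*Vegfa* (ENSMUSG00000023951, chr17:46327919-46343309, minus strand) encodes VEGF-A, the secreted ligand that drives growth of blood vessels. The scrambled libraries held 152 and 176 reads of it, and knockdown 1 held 281 and knockdown 2 held 199. Scaled to the mean library, the normalized counts were 159 and 148 against 280 and 233. Both knockdown libraries therefore lay above both scrambled libraries, with knockdown 1 the highest. The means were 154 ± 7.84 and 256 ± 33.5 (SD, n = 2 each), a fold of 1.67 with a 95% interval of 1.33 to 2.10. The log2 fold change was 0.74 ± 0.16 (SE, edgeR quasi-likelihood test, Benjamini-Hochberg adjusted p = 0.00763). Within batch 1 the log2 ratio of knockdown to scrambled was 0.81 and within batch 2 it was 0.65. Both batches thus gave the same direction with similar sizes.

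**Figure D1:**
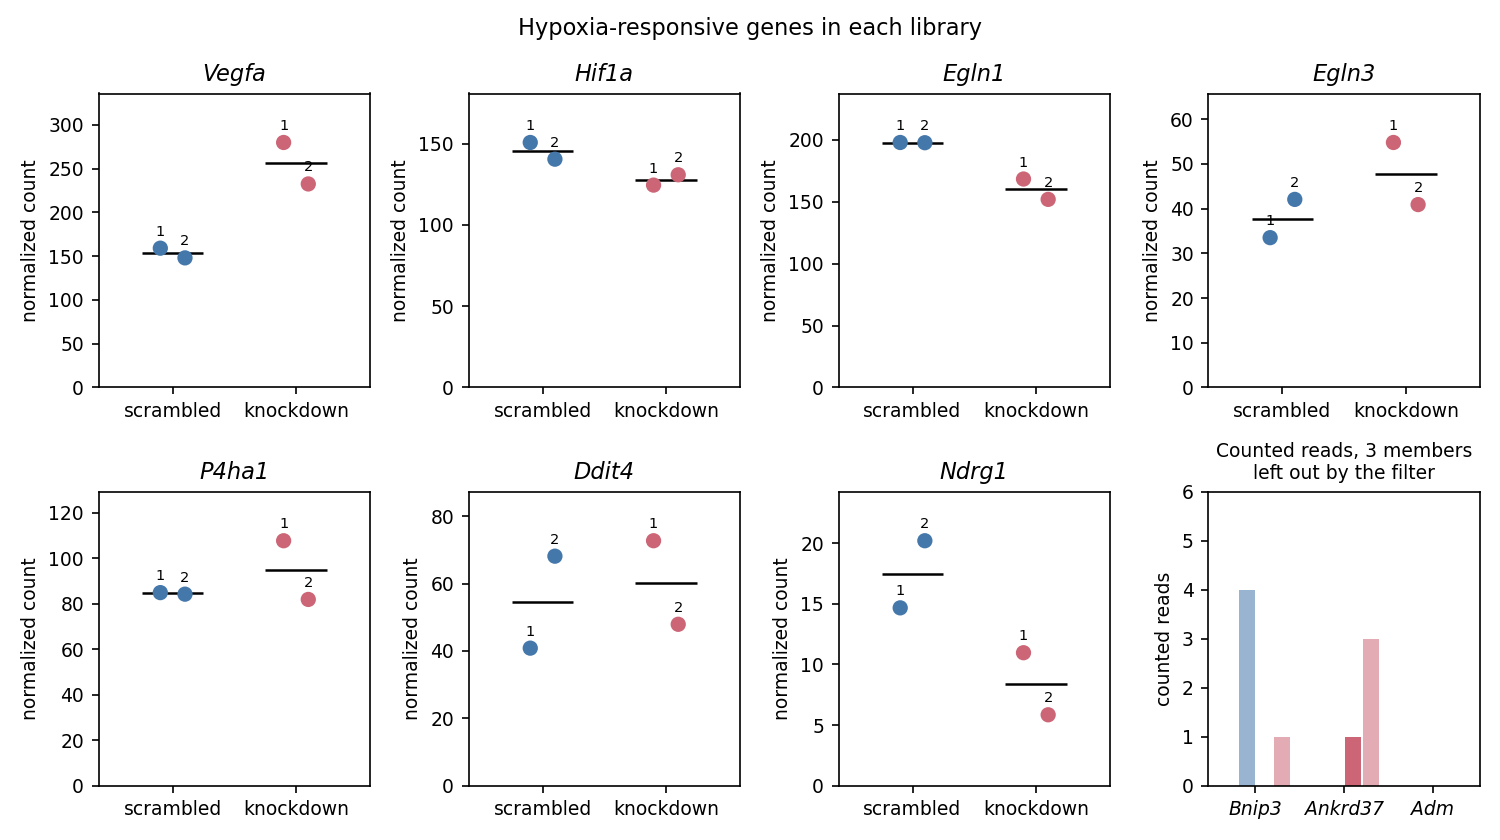
Normalized counts of the 7 tested members in each library (points, numbered by batch) with the mean of each group (line), and counted reads of the 3 members too low to test (blue scrambled, red knockdown, paler bars batch 2). *Vegfa* lies at 148 and 159 in the scrambled and at 233 and 280 in the knockdown libraries, while the libraries of *Egln3*, *P4ha1* and *Ddit4* overlap between groups.

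The *Vegfa* call was lost in 4 of 16 alternatives: both DESeq2 fits with a parametric dispersion trend, the fit without knockdown 1 and the fit with chromosome medians removed. Without knockdown 1 the log2 fold change was 0.60 (edgeR, Benjamini-Hochberg adjusted p = 0.189), and 13 genes were then called lower and 7 higher in all. The median log2 fold change of the 414 tested genes of chromosome 17 was 0.19, and over the chromosomes this median ran from -0.37 on chromosome 9 to 0.30 on chromosome 16. Among 40 tested genes within 2 Mb of *Vegfa*, 29 were higher, with a median of 0.22, although only 1, *Tjap1*, was called (log2 fold change 0.99, edgeR, adjusted p = 0.00492). After the chromosome medians were removed, *Vegfa* stood at 0.55 (edgeR, adjusted p = 0.0623). The copy number of these chromosomes in the selected lines was not measured, and the part of the chromosome in the *Vegfa* value was not tested. The direction held in all 16 alternatives, and the adjusted p, from 0.000891 to 0.189, was below 0.05 in 12.

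**Figure D2:**
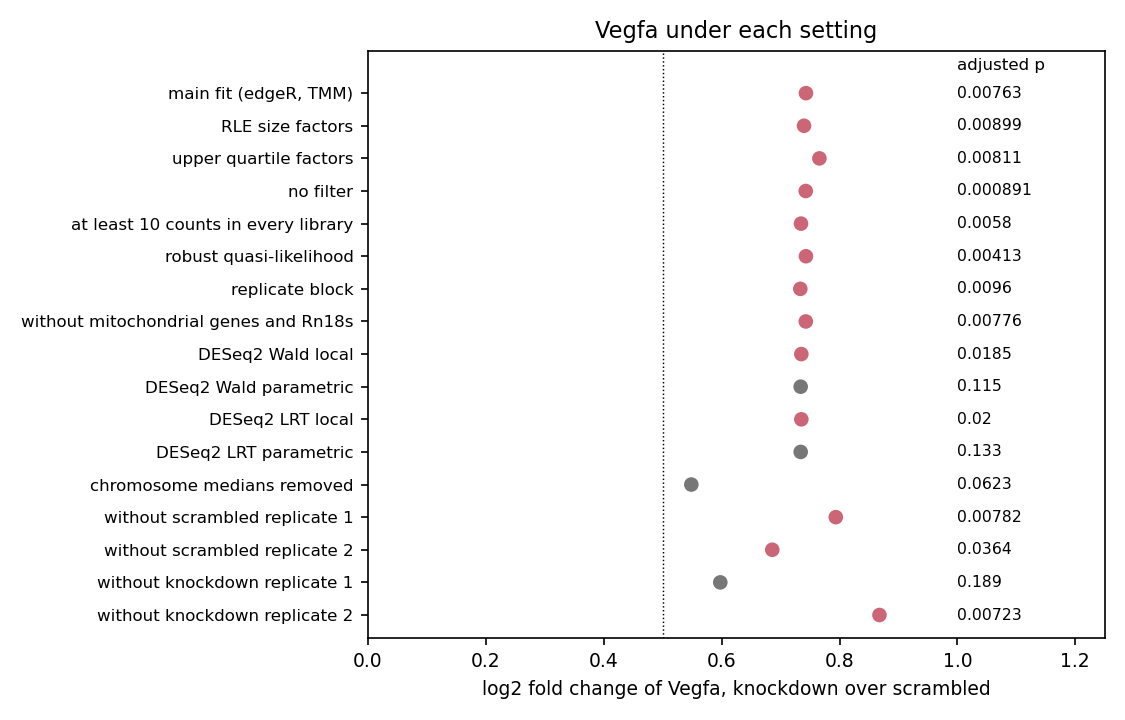
Log2 fold change of *Vegfa* under the reported fit and each alternative, with the adjusted p printed at the right; red points have an adjusted p below 0.05 and the dotted line marks the fold threshold of 0.5. Every value lies between 0.55 and 0.87, and the grey points are the parametric DESeq2 fits, the removal of chromosome medians and the omission of knockdown 1.

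Of 1966 genes with a mean within 2 times that of *Vegfa*, the 5 with the most similar profile over the 4 libraries (Euclidean distance of centred log2 normalized counts) were *Cldnd1* at a distance of 0.0621, *Gprc5a* at 0.0698, *Angptl4* at 0.0769, *Oxr1* at 0.0929 and *Hadha* at 0.109. *Angptl4*, which encodes a secreted inhibitor of lipoprotein lipase, lies on chromosome 17 like *Vegfa*. It had 88 and 100 reads in the scrambled and 152 and 110 in the knockdown libraries, and a log2 fold change of 0.68 (edgeR, adjusted p = 0.0252). The adjusted p of *Angptl4* was below 0.05 in 9 of 16 alternatives, and was 0.160 in edgeR with chromosome medians removed. *Angptl4* was not a gene of the lists below. Likeness over 4 libraries rests mainly on the step between groups and on the excess in knockdown 1, which these 5 genes shared with *Vegfa*.

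*Hif1a* (chr12:73948149-73996321, plus strand), the oxygen-regulated subunit itself, was not called. It had 144 and 167 reads in the scrambled and 125 and 112 in the knockdown libraries, and the normalized counts of 151 and 140 lay above those of 125 and 131 in both knockdown libraries. The log2 fold change was -0.19, with a 95% interval from -0.53 to 0.15 (edgeR, Benjamini-Hochberg adjusted p = 0.539). The interval corresponds to 0.694 to 1.11 times the scrambled level. HIF-1α is controlled mainly as a protein, which these data do not measure.

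*Egln1* (chr8:125635308-125676865, minus strand) encodes PHD2, the main hydroxylase of HIF-1α in most cells. Its normalized counts were 198 in both scrambled libraries and 168 and 152 in the knockdown libraries, from 189, 235, 169 and 130 reads. The groups did not overlap, but the log2 fold change of -0.30 (95% interval -0.63 to 0.02) did not pass the test (edgeR, Benjamini-Hochberg adjusted p = 0.267). *Egln3* (chr12:54225767-54250673, minus strand), which encodes the inducible hydroxylase PHD3, had 32, 50, 55 and 35 reads, with normalized counts of 33.5 and 42.1 against 54.8 and 40.9. The groups overlapped, and its log2 fold change of 0.34 (95% interval -0.21 to 0.88) had an adjusted p of 0.485 in edgeR. In batch 1 the log2 ratio for *Egln3* was 0.71 and in batch 2 it was -0.040, and without knockdown 1 its fold change was 0.10.

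*P4ha1* (chr10:59159092-59209126, plus strand) encodes a catalytic subunit of collagen prolyl 4-hydroxylase. Its normalized counts were 84.8 and 84.1 in the scrambled and 108 and 81.8 in the knockdown libraries. Knockdown 1 was above and knockdown 2 below both scrambled libraries. The log2 fold change was 0.17 (95% interval -0.22 to 0.57; edgeR, adjusted p = 0.639), and it was -0.048 without knockdown 1.

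*Ddit4* (chr10:59785491-59788492, minus strand) encodes REDD1, a stress-induced brake on mTORC1. It had 39, 81, 73 and 41 reads, and the normalized counts were 40.8 and 68.1 against 72.7 and 47.9. The batches moved apart, with a log2 ratio of 0.83 in batch 1 and -0.51 in batch 2. The fitted log2 fold change was 0.14 (95% interval -0.41 to 0.68; edgeR, adjusted p = 0.809), it turned to -0.16 without scrambled 1 and -0.21 without knockdown 1, and it was 0.57 without scrambled 2. *P4ha1* and *Ddit4* are both on chromosome 10, whose median was 0.24, and with the chromosome medians removed they stood at -0.066 and -0.10.

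*Ndrg1* (chr15:66801166-66841835, minus strand), a widely used hypoxia marker, was sparse, with 14 and 24 reads in the scrambled and 11 and 5 in the knockdown libraries. Its normalized counts of 14.7 and 20.2 against 11.0 and 5.84 did not overlap. The log2 fold change was -1.03 ± 0.44 (SE), and its 95% interval from -1.95 to -0.11 was the widest of the 7. The log2 ratio was -0.42 in batch 1 and -1.79 in batch 2, and the fold change was -1.58 without knockdown 1 and -0.68 without knockdown 2. The unadjusted p was 0.0305 and the Benjamini-Hochberg adjusted p in edgeR 0.177, so the gene was not called. No alternative brought it below 0.161. With *Hif1a* and *Egln1*, *Ndrg1* made 3 tested members whose knockdown libraries both lay below both scrambled libraries. *Vegfa* was the 1 tested member with both above. Over all genes tested, 26.0% did not overlap in the lower and 26.4% in the higher direction, 52.4% in all, against 4 of 7 tested members.

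**Figure D3:**
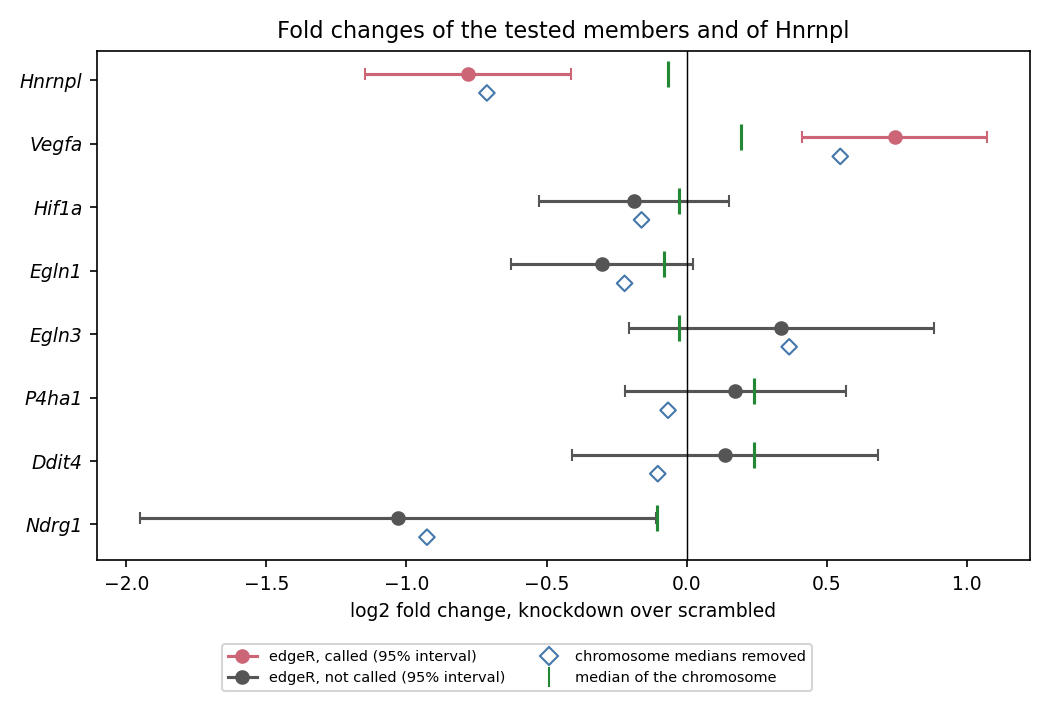
Log2 fold changes of *Hnrnpl* and the 7 tested members with 95% intervals (circles, red where called), the median of each gene's chromosome (green bars) and the values with chromosome medians removed (blue diamonds). The interval of *Vegfa* runs from 0.41 to 1.07, and *P4ha1* and *Ddit4* cross 0 when the median of chromosome 10 is removed.

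The 3 remaining members gave at most 4 reads in any library. *Bnip3* (chr7:138490690-138511253, minus strand), a mitophagy receptor of the outer mitochondrial membrane, had 0 and 4 reads in the scrambled and 0 and 1 in the knockdown libraries. The last 850 bases of its transcript in the reference, remapped to the genome, had a mapping quality of 30, against 60 for the other members, and how many of its reads were dropped for low mapping quality was not tested. *Ankrd37* (chr8:46449939-46458744, minus strand) had 0 reads in both scrambled and 1 and 3 in the knockdown libraries. On the opposite strand, 61.7% of its exonic bases are also exon of *Ufsp2* and 19.7% of *Lrp2bp*, and a counter that ignored strand would leave reads there unassigned; the strand setting is not given in the sources used here. *Adm* (chr7:110226858-110229027, plus strand), which encodes the vasodilator peptide adrenomedullin, had 0 reads in all 4 libraries. A count of 0 allows up to 3 counts, or 1.79 to 2.44 CPM (counts scaled to the total counted reads) depending on the library, so low expression was not detectable at this depth.

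The other genes of the pathway were grouped in lists by role, 114 genes in all, of which 86 were tested. Of these, 1 was called higher and 5 lower, with a median log2 fold change of -0.0089, where 2.33% of all genes tested were called higher, 3.22% lower and 5.55% in all. In each of the 5 lists with tested genes but 0 calls in edgeR, DESeq2 (Wald test, local fit) also called 0. Over all lists, that DESeq2 fit called 1 gene higher and 2 lower of the 108 genes with any reads. Genes of low count such as *Pfkfb3* had no adjusted p in it and could not be called, so 108 does not compare with the 86 tested in edgeR. The DESeq2 fit called 0 among the other VEGF ligands and receptors and 0 among the collagen hydroxylases, where edgeR called 1 lower in each.

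Other HIF subunits and coactivators (7 genes) gave 0 calls among 4 tested. *Epas1* and *Hif3a*, which encode the other HIF-α subunits, had 0 reads in every library, leaving *Hif1a* as the 1 HIF-α gene that was read. *Arnt*, the shared partner, had 22, 39, 32 and 27 reads (log2 fold change 0.16). *Cited2*, a HIF target whose product competes with HIF-1α for the coactivators p300 and CBP, had the smallest p of the list, at a log2 fold change of 0.31 (edgeR, unadjusted p = 0.0309, adjusted p = 0.178). Of the 10 genes of oxygen sensing and HIF turnover, 8 were tested, and in edgeR 0 were called and 0 had an unadjusted p below 0.05. The smallest p was that of *Elob*, which encodes a subunit of the VHL ligase (log2 fold change 0.26, edgeR, unadjusted p = 0.0963).

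Among 9 other VEGF ligands and receptors, *Vegfc*, the ligand of lymphatic vessel growth, fell. It had 47 and 54 reads in the scrambled and 20 in each knockdown library, normalized counts of 49.2 and 45.4 against 19.9 and 23.4, which did not overlap. Its log2 fold change was -1.13 ± 0.28 (SE, edgeR, Benjamini-Hochberg adjusted p = 0.0240), while the adjusted p ranged from 0.0069 to 0.529 and was below 0.05 in 9 of 16 alternatives. Leaving out scrambled 1, knockdown 1 or knockdown 2 ended the call, with adjusted p of 0.0609, 0.227 and 0.0538 in edgeR. The other 3 ligand genes, *Vegfb* at -0.53, *Vegfd* at 0.70 and *Pgf* at 0.46, and the coreceptor gene *Nrp2* at 0.49 had adjusted p in edgeR of 0.0679, 0.197, 0.416 and 0.0965. The signalling receptor genes *Kdr* and *Flt4* had 0 reads, and *Flt1* had 3, 1, 0 and 0. Of the adrenomedullin genes, 0 of 5 were tested, and *Adm2* had 15 and 12 reads in the scrambled and 3 and 1 in the knockdown libraries.

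Of 32 other textbook HIF targets, among them *Hk2*, *Pfkfb3*, *Pfkfb4*, *Slc2a1* and *Pdk1* of glucose metabolism, 25 were tested, with 1 called higher, 2 lower and a median of 0.032. *Hmox1*, which encodes the haem-degrading enzyme haem oxygenase 1, rose from 92 and 98 reads to 194 and 203. Its normalized counts were 96.3 and 82.4 against 193 and 237, a log2 fold change of 1.27 ± 0.17 (SE, edgeR, Benjamini-Hochberg adjusted p = 0.000182), and it was below 0.05 in all 16 alternatives. *Wsb1*, a ubiquitin ligase subunit gene, fell by 0.66 on the log2 scale (edgeR, adjusted p = 0.0360), and the call held in 9 of 16 alternatives. It was lost in all 4 DESeq2 fits (adjusted p from 0.157 to 0.501) and with chromosome medians removed (edgeR, adjusted p = 0.115). It was also lost without scrambled 1 (log2 fold change -0.50) or knockdown 1 (-0.49). *Errfi1* was not called (-0.70, edgeR, adjusted p = 0.0552). Its adjusted p ranged from 0.00297 to 0.534 and was below 0.05 in 4 of 16 alternatives, among them the fit with the replicate number as a block (0.0158).

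A further list held 13 glycolytic targets, with 11 tested, 8 of them below 0 and a median of -0.24. These counts leave out the genes of glucose metabolism in the preceding list, of which *Hk2* stood at 0.049, *Pfkfb3* at 0.13, *Slc2a1* at -0.18 and *Pfkfb4* at -0.58, and *Pdk1* was not tested. *Pfkl*, a phosphofructokinase gene, was the 1 called, with 46 and 70 reads in the scrambled and 17 and 14 in the knockdown libraries. Its log2 fold change was -1.68 ± 0.30 (SE, edgeR, Benjamini-Hochberg adjusted p = 0.00181), and the call held in 13 of 16 alternatives, the exceptions being the fit without knockdown 1 (0.120) and the parametric DESeq2 fits (0.0649 and 0.0714). The unadjusted p was below 0.05 for 5 genes, all lower, namely *Pfkl*, *Pfkp* (-0.94), *Pgam1* (-0.61), *Pkm* (-0.34) and *Aldoa* (-0.31). Over all genes tested, 21.8% had such a p and 49.9% were above 0. With chromosome medians removed the unadjusted p was below 0.05 for 2 of them, *Pfkl* at -1.92 and *Pfkp* at -1.17, and both were then called (edgeR, adjusted p of 0.000574 and 0.0359). In that fit *Pgam1* stood at -0.38, *Aldoa* at -0.24 and *Pkm*, which lies on chromosome 9, at 0.027. The last 850 bases of the reference transcripts of *Gapdh* and *Pgk1* remapped with a quality of 1 and those of *Pgam1* with 22, so the counts of these 3 genes are uncertain.

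Among 11 other genes of collagen prolyl and lysyl hydroxylation, the family of *P4ha1*, 9 were tested and *Plod2*, a lysyl hydroxylase gene, fell. It had 126 and 155 reads against 85 and 74, and a log2 fold change of -0.62 ± 0.17 (SE, edgeR, adjusted p = 0.0366). *Plod2* lies on chromosome 9, whose median was -0.37, and stood at -0.25 with chromosome medians removed (edgeR, adjusted p = 0.556). The call held in 7 of 16 alternatives and in none of the fits without 1 library, which gave adjusted p of 0.0911, 0.0995, 0.235 and 0.102.

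*Ndrg* paralogues and mTORC1 brakes, the relatives of *Ndrg1* and *Ddit4*, gave 0 calls among 9 tested of 11, with 1 unadjusted p below 0.05. The smallest p was that of *Rheb*, which encodes the GTPase that activates mTORC1 (log2 fold change 0.37, edgeR, unadjusted p = 0.0160, adjusted p = 0.125). *Ddit4l*, the paralogue of *Ddit4*, had 7 and 13 reads in the scrambled and 1 and 0 in the knockdown libraries and was not tested. Of 11 mitophagy genes, the relatives of *Bnip3* by function, 10 were tested and 0 called, with 2 unadjusted p below 0.05. *Optn*, which encodes the autophagy receptor optineurin, had 10, 27, 26 and 44 reads and a log2 fold change of 1.14 (edgeR, adjusted p = 0.0875), and it passed in 3 of 16 alternatives, the fit with the replicate number as a block (adjusted p = 0.0272), the fit with no filter on low counts and the fit without scrambled 2. *Bnip3l*, the paralogue of *Bnip3*, was read in 87, 126, 95 and 81 copies, at -0.064. *Pink1*, which encodes the kinase that marks damaged mitochondria, was the other gene with an unadjusted p below 0.05 and lay in the opposite direction, at -0.92 (edgeR, unadjusted p = 0.0173, adjusted p = 0.130).

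Of 6 genes, other than *Hnrnpl*, whose proteins are known to bind *Vegfa* mRNA, all were tested and 0 called, with 1 unadjusted p below 0.05. *Hnrnpa2b1*, which encodes a partner of hnRNP L at the CA-rich element, had the smallest p, with 1402 and 1722 reads against 1965 and 1570 and a log2 fold change of 0.38 (edgeR, unadjusted p = 0.0112, adjusted p = 0.104). With chromosome medians removed it stood at 0.10. *Elavl1*, which encodes the stabilizing factor HuR, was at -0.028 (edgeR, adjusted p = 0.937).

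**Figure D4:**
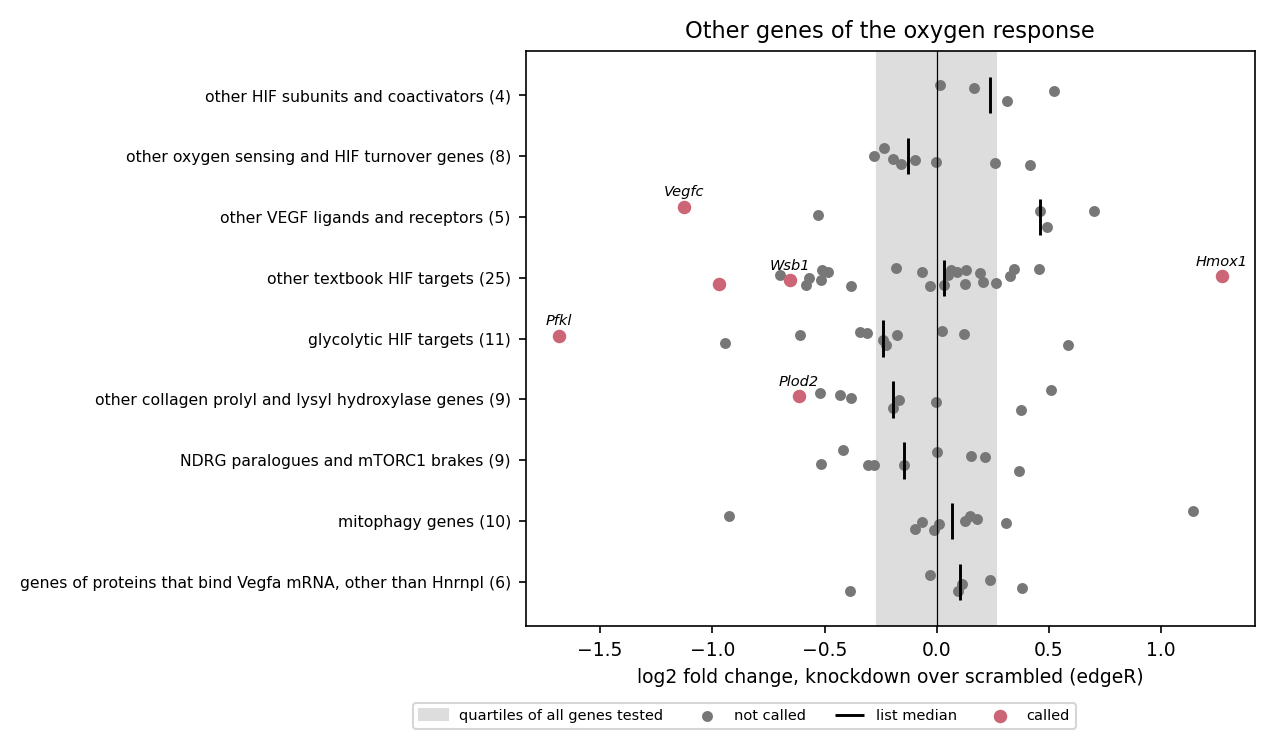
Log2 fold changes of the tested genes of each list (points, number tested in parentheses), with list medians (black bars) and the range between the quartiles of all genes tested, -0.27 to 0.27 (grey band). *Hmox1* at 1.27 is the 1 gene called higher, and of the 5 called lower *Vegfc*, *Wsb1*, *Pfkl* and *Plod2* are labelled.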

How the data were processed

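Direct RNA of 4 libraries was basecalled with guppy, mapped to GRCm39 with minimap2 2.17 and counted per gene with HTSeq 0.9.1 by the authors, who deposited whole read counts per Ensembl gene ID. Annotation release and strand setting are not given in the sources used here. Reads listed without a gene (ambiguous, 16.0% to 16.5%; low mapping quality, 22.7% to 23.8%) were left out. Of the IDs, 56017 matched GENCODE vM39 after the version was dropped.

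Counts were tested in edgeR 4.0.16 (R 4.3.3) with TMM factors, filterByExpr and the quasi-likelihood test (knockdown against scrambled, n = 2 each), and p-values were adjusted by Benjamini-Hochberg over 8670 genes. An exact permutation test of 2 against 2 cannot go below p = 0.333. Normalized counts were scaled to the mean library, SEs are log2 fold changes over the root of F, and the 95% intervals use the same F. The scripts were tested on simulated data. The libraries of each group differed by more than counting error (chi-square divided by genes, 2.54 scrambled and 2.79 knockdown). The zero limit covers counting error only. Same-numbered libraries share a labelled batch, and their deviations correlated at r = 0.0026 over 4501 genes. Alternatives were other size factors and filters, a robust fit, the replicate block, omission of mitochondrial genes and *Rn18s*, 4 configurations of DESeq2 1.42.0, removal of chromosome medians as offsets, and omission of each library. Sequences came from the GRCm39 genome with GENCODE transcripts, and transcript ends were remapped with minimap2 2.31-r1302. Genes named are the members, *Hnrnpl*, the called genes and the smallest p of each list, and the 5 nearest to *Vegfa*; 1 called gene of a list is not reported here, and others named were chosen after their values were seen. Members and lists were chosen with earlier results of these data known.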

Additional observations from a re-analysis of the deposited data

How the results depend on the processing

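Over all genes, 202 were called higher and 279 lower. DESeq2 gave 80 and 148 (Wald, local fit), 44 and 71 (Wald, parametric), 75 and 147 (LRT, local) and 42 and 70 (LRT, parametric), removal of chromosome medians 110 and 179, and an adjusted p below 0.1 gave 340 and 432. Omission of single libraries gave 7 to 187 called higher and 13 to 257 lower. The count of members called higher, 1, became 0 under both parametric DESeq2 fits, with chromosome medians removed and, in a range from 0 to 1, without knockdown 1. *Vegfa* was 0.73 in the parametric DESeq2 fits (adjusted p = 0.115, Wald, and 0.133, LRT) and 0.55 with chromosome medians removed, and 0.60 to 0.87 without 1 library. With the replicate number as a block it was 0.73 (edgeR, adjusted p = 0.00960), and the block changed the call of no member. *Hnrnpl* was -0.78 in the parametric DESeq2 fits (adjusted p = 0.0567 and 0.0670) and -1.03 to -0.47 without 1 library. *P4ha1* was -0.066 and *Ddit4* -0.10 with chromosome medians removed, and without 1 library they ran from -0.048 to 0.35 and from -0.21 to 0.57. *Hif1a*, *Egln1* and *Egln3* kept their direction in 16 of 16 alternatives and *Ndrg1* in the 15 that tested it, all uncalled. The lowest counts, 7 and 13, were those without knockdown 1, and the other omissions gave at least 136 and 241. A group of 1 was taken to vary like the other, and the cause of these shifts was not tested. With 2 libraries a group and at most 281 reads of *Vegfa*, the 95% intervals of all 6 uncalled members that were tested still reach past the fold threshold of 0.5, upwards for *Egln3* (0.88), *Ddit4* (0.68) and *P4ha1* (0.57) and downwards for *Hif1a* (-0.53), *Egln1* (-0.63) and *Ndrg1* (-1.95).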
